A study of Arabidopsis thaliana with 8 samples.

Results

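The 10 genes described here encode the core subunits of Polycomb repressive complex 1 (PRC1) of *Arabidopsis thaliana* and the VAL and accessory proteins that act with it: *RING1A*, *RING1B*, *BMI1A*, *BMI1B*, *BMI1C*, *VAL1*, *VAL2*, *VAL3*, *LHP1* and *EMF1*. They were taken by their locus identifiers, without use of any measured value, and were 10 of 27444 protein-coding genes on chromosomes 1 to 5. All 10 were found in the annotation, where *BMI1A* and *BMI1B* carry the names *DRIP2* and *DRIP1*, *VAL1* and *VAL2* the names *HSI2* and *HSL1*, and *LHP1* the name *TFL2*. The gene names *DRIP1* and *DRIP2* have nothing to do with the assay, which is also abbreviated DRIP.

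The assay was DNA:RNA immunoprecipitation sequencing (DRIP-seq). Its antibody, S9.6, recognizes DNA:RNA hybrids and so recovers genomic DNA from R-loops, the structures in which an RNA strand is paired with 1 DNA strand and the other DNA strand is displaced. The 8 libraries were made from whole, formaldehyde-fixed seedlings at 10 days of age, either of *ndx1-4*, in which a T-DNA disrupts *NODULIN HOMEOBOX* (*NDX*), or of wild-type Col-0. Per genotype there was 1 S9.6 library from nucleic acid digested with RNaseH1, which removes the RNA of hybrids, 2 S9.6 libraries without the digestion, and 1 input library with no antibody. The analysed data were 1 peak list per genotype. Thus, no value below has a replicate error, no test between the genotypes was possible, and each difference is a difference between these 2 lists. Deeper sequencing usually gives more peaks, and depth and genotype cannot be told apart here. The *ndx1-4* line is 1 insertion allele, and whole seedlings pool the cell types present at that age.

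PRC1 silences genes in plants and animals by ubiquitinating histone H2A. In *Arabidopsis* the E3 ligase is formed by a RING1 and a BMI1 protein, EMF1 is a plant-specific partner, and LHP1 reads the histone H3 methylation that Polycomb repressive complex 2 (PRC2) writes. The VAL proteins carry a B3 domain that binds the RY element CATGCA and bring Polycomb to seed maturation genes and to the flowering repressor *FLC*. NDX is a homeobox protein known to bind RING1A and RING1B.

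On chromosomes 1 to 5 the *ndx1-4* list held 13549 peaks and the Col-0 list 14180, with a median length of 340 bases in each. A peak was given a partner where it shared at least 1 base with a peak of the other list. This was so for 12541 *ndx1-4* peaks (92.6%) and 12495 Col-0 peaks (88.1%). Each peak had a whole-number score, which ran between 53 and 5806 in *ndx1-4* and between 53 and 6678 in Col-0. What 1 unit of the score stands for is not given in the sources used here, so each score is given below with its percentile, the percent of peaks of the same list that scored at or below it. Positions within genes are counted in the direction of transcription from 1 at the annotated gene start, with negative numbers before it. Peaks carry no strand, so a peak between or across genes cannot be assigned to the transcript of either.

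**Figure D1:**
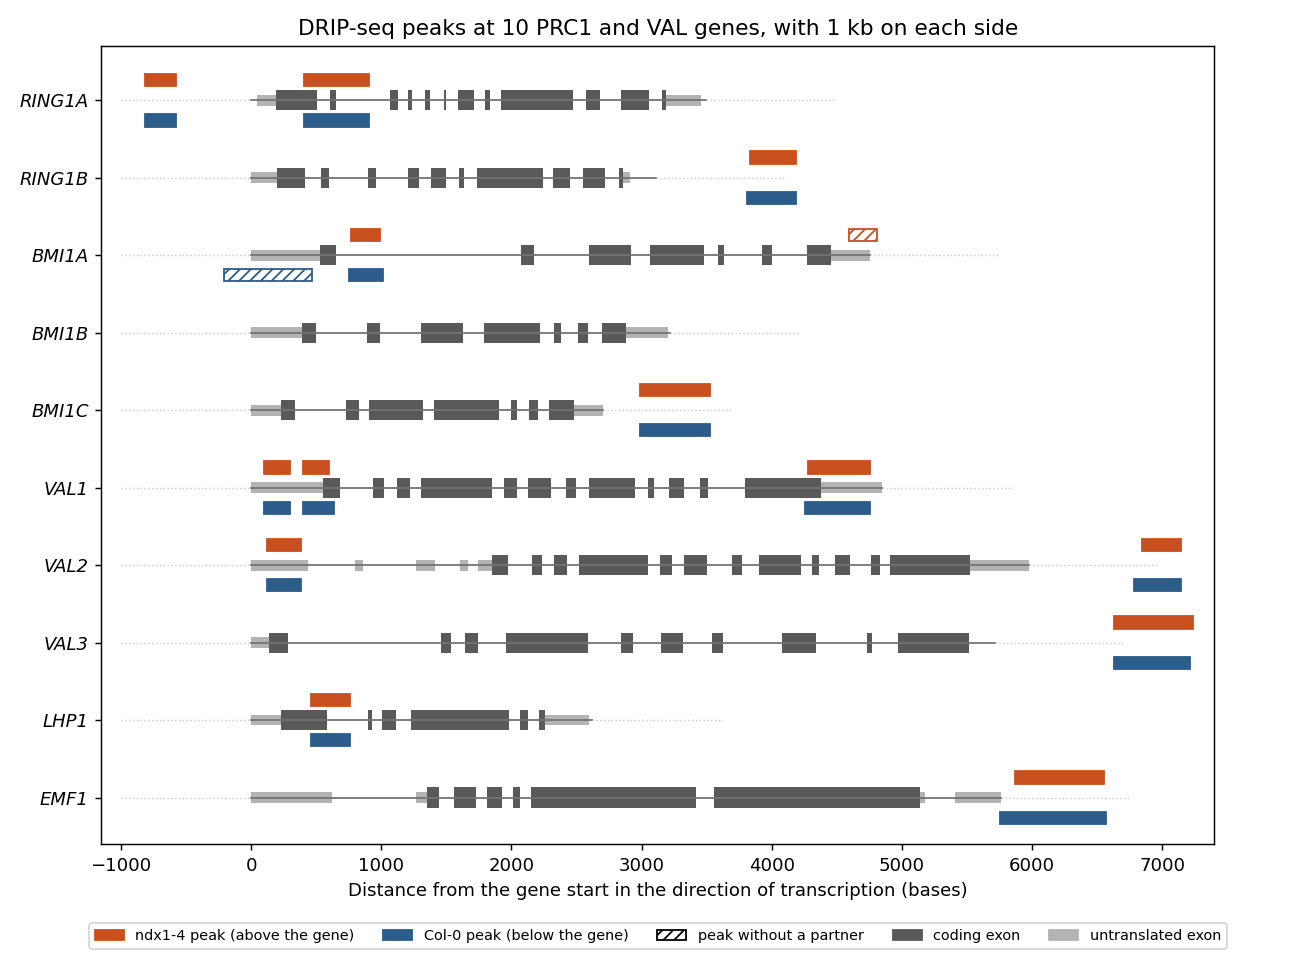
Peaks of *ndx1-4* (above each gene) and Col-0 (below each gene) at the 10 genes with 1 kb on each side, against the distance from the gene start in bases, with coding and untranslated exons of 1 transcript per gene and hatched boxes for peaks without a partner. The hatched boxes are at *BMI1A*, at the gene end in *ndx1-4* and over the gene start in Col-0, and the other 13 peaks of each list overlap a peak of the other, with the same edges in 6 of the 13 pairs.

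At the RING1 genes, which encode the RING finger proteins of the ligase, the gene body of *RING1A* held a peak and that of *RING1B* did not, in both lists. *RING1A* (AT5G44280, chromosome 5, 17835810 to 17839303, minus strand, 12 exons) had the same peak in both lists, chr5:17838401-17838900, from position 404 to 903. It was 500 bases long and scored 149 (percentile 88.6) in *ndx1-4* and 154 (percentile 86.8) in Col-0. In the transcript with the longest coding sequence it ran from exon 1 into intron 2, with 29.6% of its bases in coding sequence (CDS) and 70.4% in introns. Another annotated transcript has 31 of these bases in a UTR. A further peak lay upstream of the gene at chr5:17839881-17840120, from position -817 to -578, again with the same edges in both lists. Its score was 117 in both, at percentile 73.7 in *ndx1-4* and 70.1 in Col-0. It covered 95 bases of the 98-base snoRNA gene AT5G06565, which lies on the opposite strand.

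The intron 2 bases under the *RING1A* peak are shown because they are the one place in the RING1 genes where a peak holds an RY element. They span chr5:17838401-17838649 of the TAIR10.1 assembly of RefSeq and are written on the minus strand, 5′ to 3′, with the RY match (position 817, here as its reverse complement TGCATG) in capitals. Purines made up 36.9% of these bases on the coding strand.
RING1A intron 2: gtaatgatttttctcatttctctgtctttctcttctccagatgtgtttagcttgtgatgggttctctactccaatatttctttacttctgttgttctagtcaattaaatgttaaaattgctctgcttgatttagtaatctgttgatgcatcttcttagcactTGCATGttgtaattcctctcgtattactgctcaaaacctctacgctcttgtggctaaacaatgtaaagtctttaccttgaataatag

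*RING1B* (AT1G03770, chromosome 1, 944572 to 947682, plus strand, 10 exons) had no peak in its gene body and 1 peak downstream in each list. In *ndx1-4* the peak was at chr1:948401-948760, 719 bases past the gene end, with a length of 360 bases and a score of 76 (percentile 24). In Col-0 it was at chr1:948381-948760, 699 bases past the gene end, with a length of 380 bases and a score of 77 (percentile 23.2). All of its bases lay in *TPX2*, a spindle assembly gene on the opposite strand whose 3′ end overlaps that of *RING1B* by 163 bases. The coding sequences of *RING1A* and *RING1B* were 77.6% identical over 1355 aligned bases. However, under 1% of the 31-base words of *RING1B* (0.617%) and of *RING1A* (0.173%) occurred more than once in the genome, so nearly all of both genes was distinct at that length.

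The BMI1 genes, which encode the RING finger partners of the RING1 proteins, held the only peaks of the 10 genes that were in 1 list and not in the other, and both were in *BMI1A*. *BMI1A* (AT2G30580, chromosome 2, 13025911 to 13030661, plus strand, 7 exons) had 2 peaks in each list, and 1 pair of them were partners. The partners lay in intron 1, which is 1419 bases long. In *ndx1-4* this peak was at chr2:13026681-13026900 (positions 771 to 990, 220 bases), with a score of 69 (percentile 12.7). In Col-0 it was at chr2:13026661-13026920 (positions 751 to 1010, 260 bases), with a score of 75 (percentile 19.9). Thus, the intron peak was low in both lists, and the *ndx1-4* peak lay wholly within that of Col-0.

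The peak found only in *ndx1-4* was at the gene end, chr2:13030501-13030720, with 161 of its 220 bases (73.2%) in the 3′ UTR and 59 past the gene end. Its score of 64 was at percentile 6.02, and 761 of the 1008 *ndx1-4* peaks without a partner scored as high or higher. The nearest Col-0 peak was 2740 bases away. It was a peak of the size usual for those without a partner, whose median length was 220 bases and median score 71 in *ndx1-4*.

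The peak found only in Col-0 lay over the gene start, chr2:13025701-13026380, from position -210 to 470. It was 680 bases long, with 470 bases (69.1%) in the 5′ UTR of exon 1 and 210 bases upstream, and it ended before the start codon at position 534. Its score of 313 was at percentile 99.2 of the Col-0 list, where 117 of 14180 peaks (0.825%) scored as high or higher. The nearest *ndx1-4* peak was that of intron 1, 300 bases away. Among the 1685 Col-0 peaks without a partner, 53 scored as high or higher and 164 were as long or longer, against a median length of 220 bases and a median score of 76. The 53 were 45.3% of the 117, so that many of the highest Col-0 peaks had no partner.

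A gene start under a peak without a partner was seen for 0.372% of protein-coding genes in *ndx1-4* (102 genes) and 0.794% in Col-0 (218 genes). Of the 10 genes, 1 was of this kind in Col-0 (*BMI1A*) and 0 in *ndx1-4*. When only peaks of the top 1% of scores of each list were used, 0 genes in *ndx1-4* and 19 genes in Col-0 were of this kind, with *BMI1A* among the 19. In all, 381 bases of the *BMI1A* gene body (8.02%) were under a peak in *ndx1-4*, against 730 bases (15.4%) in Col-0. The difference of the 2 lists at *BMI1A* has no replicate check.

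The sequence before the *BMI1A* gene start is shown because it lies under the Col-0 peak that had no partner, and the *ndx1-4* intron 1 peak is shown because it lies under peaks of both lists. Both are on the plus strand of TAIR10.1, at chr2:13025701-13025910 and chr2:13026681-13026900. Capitals mark a match to GAGAGA (position -70) in the first, and an RY match (TGCATG, position 801) in the second. The whole Col-0 peak over the gene start held 4 matches to GAGAGA and 1 to RY, and all but the GAGAGA match marked here lie outside the stretch shown.
BMI1A upstream: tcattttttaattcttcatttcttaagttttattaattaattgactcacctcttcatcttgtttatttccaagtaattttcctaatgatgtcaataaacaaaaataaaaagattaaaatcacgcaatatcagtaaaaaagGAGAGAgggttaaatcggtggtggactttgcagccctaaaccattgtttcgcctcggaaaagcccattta
BMI1A intron 1: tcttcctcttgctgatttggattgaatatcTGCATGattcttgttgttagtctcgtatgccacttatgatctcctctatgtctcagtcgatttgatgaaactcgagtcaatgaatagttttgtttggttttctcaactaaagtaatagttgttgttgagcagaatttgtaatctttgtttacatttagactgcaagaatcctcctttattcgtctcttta

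*BMI1B* (AT1G06770, chromosome 1, 2078880 to 2082097, minus strand, 7 exons), whose coding sequence was 80.3% identical to that of *BMI1A* over 1228 aligned bases, was the gene with no peak in its body or within 1 kb in either list. The nearest peak was downstream, 2540 bases away in *ndx1-4* and 2520 bases away in Col-0. None of its 31-base words occurred more than once in the genome. *BMI1C* (AT3G23060, chromosome 3, 8200636 to 8203335, plus strand, 7 exons) had no peak in its body and 1 strong peak 286 bases past its end. This peak, chr3:8203621-8204160, had the same edges and a length of 540 bases in both lists. Its score was 310 (percentile 99.6) in *ndx1-4* and 334 (percentile 99.4) in Col-0, the highest of the 10 genes in each list. All of its bases lay in *CFM3A*, a gene for a chloroplast RNA splicing factor that starts 57 bases after the end of *BMI1C* on the same strand, at positions 229 to 768 of that gene. Thus, by position it is a peak near the start of *CFM3A*, and it counts for *BMI1C* only through the 1 kb flank.

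**Figure D2:**
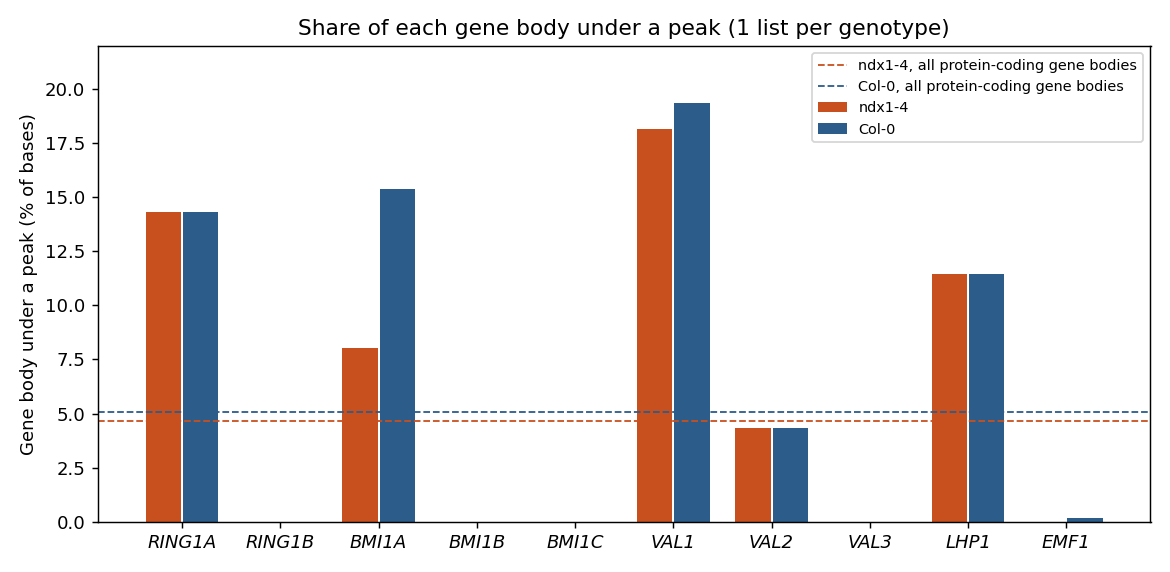
Percent of the bases of each gene body under a peak in *ndx1-4* (left bar of each pair) and Col-0 (right bar), with dashed lines at the value over all protein-coding gene bodies (4.65% in *ndx1-4* and 5.07% in Col-0). *BMI1A* has the largest gap between the bars (8.02% in *ndx1-4* and 15.4% in Col-0), while *RING1A*, *VAL2* and *LHP1* have equal bars.

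Of the VAL genes, which encode the B3-domain repressors, *VAL1* and *VAL2* had peaks in their bodies and *VAL3* did not. *VAL1* (AT2G30470, chromosome 2, 12980428 to 12985277, minus strand, 12 exons) had 3 peaks in its body in each list, the most of the 10 genes, and all were partners. A count of 3 or more was seen for 0.496% of protein-coding genes in *ndx1-4* and 0.579% in Col-0. These shares are over genes of all lengths, with a median of 2078 bases, and *VAL1* is 4850 bases long. The first peak, chr2:12984981-12985180 (positions 98 to 297), had the same edges in both lists and lay wholly in the 5′ UTR. It scored 75 (percentile 22.4) in *ndx1-4* and 80 (percentile 28) in Col-0. The second began at position 398 in both lists and crossed the start codon at position 554. It was 200 bases long with a score of 64 (percentile 6.02) in *ndx1-4*, and 240 bases long with a score of 65 (percentile 6.21) in Col-0. The CDS took 22% of its bases in *ndx1-4* and 35% in Col-0. With peaks up to 200 bases apart merged, the first and second peaks of *VAL1* count as 1. The peaks at the 10 genes then number 13 in place of 14 in each list.

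The third *VAL1* peak lay in exon 12 at the other end of the gene and ended at position 4757 in both lists. In *ndx1-4* it was at chr2:12980521-12981000 (480 bases, score 94, percentile 51.2), with 79.8% of its bases in the 3′ UTR. In Col-0 it was at chr2:12980521-12981020 (500 bases, score 104, percentile 59.1), with 76.6% of its bases in the 3′ UTR. Hence, the 3′ peak was the longest and ranked highest of the 3 in both lists, and the middle of the gene had none. Together the peaks covered 880 bases of *VAL1* (18.1%) in *ndx1-4* and 940 bases (19.4%) in Col-0, the largest share of the 10 genes in each list.

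Both 5′ peaks of *VAL1* held the RY letters that VAL proteins themselves bind, and these places are shown for that reason. They are written on the minus strand of TAIR10.1, chr2:12985122-12985151 for the leader and chr2:12984641-12984724 for the start of the coding sequence. Capitals mark the matches, which begin at positions 138 and 140 in the leader, where matches on both strands overlap, and at position 584 in the coding sequence. In all, the first peak held 3 matches and the second 2, so that 1 match of each lies outside the stretches shown.
VAL1 leader: ttcaagtgtcgTGCATGCAttttatgcgtt
VAL1 start of coding sequence: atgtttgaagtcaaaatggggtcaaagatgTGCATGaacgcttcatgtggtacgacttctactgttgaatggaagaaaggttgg

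*VAL2* (AT4G32010, chromosome 4, 15479379 to 15485354, plus strand, 16 exons) had 1 peak in its body, chr4:15479501-15479760, at positions 123 to 382, with the same edges in both lists. It scored 88 (percentile 43.2) in *ndx1-4* and 90 (percentile 42.7) in Col-0. It lay wholly in the 5′ UTR of exon 1, far before the start codon at position 1853. A second peak lay downstream where no gene is annotated. In *ndx1-4* it began 867 bases past the gene end (chr4:15486221-15486520, 300 bases, score 89, percentile 44.7). In Col-0 it began 807 bases past the end (chr4:15486161-15486520, 360 bases, score 99, percentile 54). An lncRNA gene on the opposite strand, AT4G08635, overlaps the first 104 bases of *VAL2*, and none of its bases lie under the 5′ peak.

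*VAL3* (AT4G21550, chromosome 4, 11462969 to 11468679, plus strand, 10 exons) had no peak in its body. A peak began 922 bases past its end in both lists, chr4:11469601-11470200 in *ndx1-4* (600 bases, score 96, percentile 53.7) and chr4:11469601-11470180 in Col-0 (580 bases, score 99, percentile 54). It lay wholly in *VPS28-1*, a gene of the endosomal sorting machinery on the opposite strand, whose end overlaps that of *VAL3* by 14 bases. This was the 1 pair of the 10 genes in which the *ndx1-4* peak was the longer. The coding sequences of the VAL genes were 65.5% identical between *VAL1* and *VAL2*, 63.9% between *VAL1* and *VAL3*, and 63.8% between *VAL2* and *VAL3*.

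*LHP1* (AT5G17690, chromosome 5, 5827142 to 5829763, minus strand, 6 exons), the gene of the chromodomain reader, had 1 peak with the same edges in both lists, chr5:5829001-5829300, at positions 464 to 763. It scored 116 (percentile 73) in *ndx1-4* and 120 (percentile 72.1) in Col-0, and took 11.4% of the gene body. The peak crossed from exon 1, with 41% of its bases in the CDS, into intron 1, with 59%. Its sequence is shown because its composition changed at that border. The 123 coding bases held 74.8% purines on the coding strand, with 45 G, 8 C and a run of 20 purines, whereas the 177 intron bases held 49.2% purines. It is written on the minus strand of TAIR10.1, chr5:5829001-5829300, with the coding bases in capitals.
LHP1 exon 1 and intron 1: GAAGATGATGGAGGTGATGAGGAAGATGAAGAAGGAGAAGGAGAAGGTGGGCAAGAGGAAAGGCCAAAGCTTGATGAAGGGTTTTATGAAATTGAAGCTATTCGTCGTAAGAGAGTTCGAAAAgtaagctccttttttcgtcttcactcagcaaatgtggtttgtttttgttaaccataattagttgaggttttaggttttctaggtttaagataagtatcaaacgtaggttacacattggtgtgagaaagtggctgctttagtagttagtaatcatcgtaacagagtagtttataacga

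*EMF1* (AT5G11530, chromosome 5, 3695792 to 3701549, plus strand, 8 exons) had 1 long peak at its 3′ end. In *ndx1-4* the peak was at chr5:3701661-3702340, 680 bases long with a score of 148 (percentile 88.3), and began 112 bases past the gene end. In Col-0 it was at chr5:3701541-3702360, 820 bases long with a score of 135 (percentile 80.1), and reached 9 bases into the 3′ UTR. By the rule of 1 shared base *EMF1* therefore had a peak in its body in Col-0 and not in *ndx1-4*, although both lists held the peak and 82.9% of its combined span was shared. No other annotated gene lay under it.

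Over the 10 genes, 5 had a peak in the gene body in *ndx1-4* (*RING1A*, *BMI1A*, *VAL1*, *VAL2* and *LHP1*), and the same 5 with *EMF1* made 6 in Col-0. Of all protein-coding genes, 28.2% had a peak in the body in *ndx1-4* and 29.6% in Col-0. However, the 10 genes were 2622 to 5976 bases long, against a median of 2078 bases over all protein-coding genes, and a longer gene has more room for a peak. Among the 8429 genes of that length range the shares were 40.1% in *ndx1-4* and 42.2% in Col-0, near the 5 and 6 of 10 seen here. With 1 kb on each side, 9 of 10 genes had a peak in each list. Over all protein-coding genes this was 42.6% in *ndx1-4* and 44.4% in Col-0, and in the length range 52.6% in *ndx1-4* and 54.5% in Col-0. The count of 9 was above these shares. At *RING1B*, *BMI1C* and *VAL3* it rested on peaks inside a neighbouring gene, and the shares count such peaks as well.

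Both lists held 14 peaks at the 10 genes. Of these, 8 in *ndx1-4* and 9 in Col-0 reached a gene body, and 6 in *ndx1-4* and 5 in Col-0 were in a flank only. Lengths ran between 200 and 680 bases (median 300) in *ndx1-4* and between 200 and 820 bases (median 370) in Col-0. The peaks covered 2321 of 42191 gene body bases (5.5%) in *ndx1-4* and 2739 (6.49%) in Col-0, against 4.65% in *ndx1-4* and 5.07% in Col-0 over all protein-coding gene bodies. Most of the difference between these sums was that at *BMI1A*, with 381 bases in *ndx1-4* and 730 in Col-0.

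By feature, the largest part of the peak bases was downstream of the genes, 49.8% in *ndx1-4* and 45.6% in Col-0. These include the peaks counted for *RING1B*, *BMI1C* and *VAL3*, all of whose bases lie inside a neighbouring gene. They held 360, 540 and 600 bases in *ndx1-4*, and 380, 540 and 580 bases in Col-0. The shares by feature were not set beside those over all genes, so they do not show a downstream preference. The 5′ UTRs took 12.1% in *ndx1-4* (616 bases) and 18.5% in Col-0 (1086 bases), and these sums differ by the 470 bases under the Col-0 peak at the *BMI1A* start. CDS took 8.08% in *ndx1-4* and 8.05% in Col-0, introns 14.7% in *ndx1-4* and 13.5% in Col-0, and 3′ UTRs 10.7% in *ndx1-4* and 6.69% in Col-0. Of the peaks that reached a gene body, 6 of 8 in *ndx1-4* and 7 of 9 in Col-0 touched its first 1000 bases. Over the genes of the same length range this was 59.4% of 4118 peaks in *ndx1-4* and 58.9% of 4382 in Col-0.

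Of the 14 peaks in each list, 13 had a partner. In 6 of the 13 pairs the edges were the same in both lists (46.2%), in 6 the *ndx1-4* peak was the shorter (46.2%), and in 1 it was the longer (7.69%). The difference in length, *ndx1-4* minus Col-0, lay between -140 bases at *EMF1* and 20 bases at *VAL3*. Over all 12306 pairs of 1 peak with 1 peak, the edges were the same in 21.8%, and the *ndx1-4* peak was shorter in 42.4% and longer in 28.6%. Shorter *ndx1-4* peaks were therefore about as common at these genes as in the lists as a whole.

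**Figure D3:**
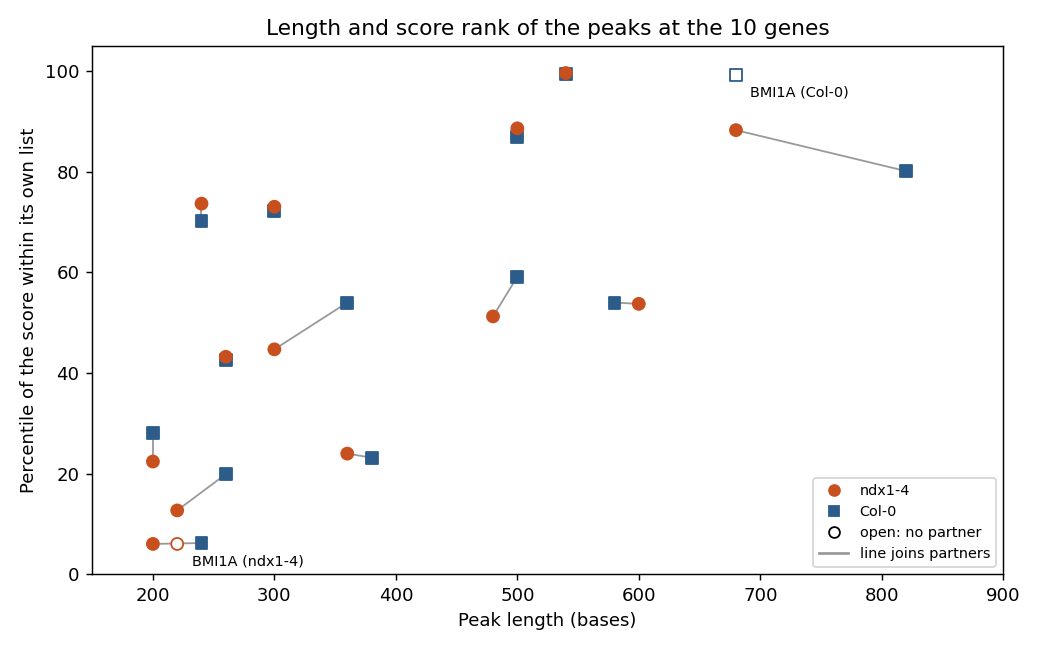
Length in bases (x axis) and score percentile within its own list (y axis) of the 14 peaks of *ndx1-4* (circles) and the 14 peaks of Col-0 (squares) at the 10 genes, with lines that join partners and open symbols for peaks without one. The open square, *BMI1A* in Col-0, is at 680 bases and percentile 99.2, while the open circle, *BMI1A* in *ndx1-4*, is at 220 bases and percentile 6.02.

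The base composition of these peaks varied widely. Their GC content was 29.7 to 42.5% (median 37%) in *ndx1-4* and 28.3 to 42.1% (median 37.3%) in Col-0, against a median of 35% over all peaks in each list. Purines on the coding strand of the gene made up 35.8% at the 5′ peak of *VAL2* and 62.9% at the upstream peak of *RING1A*, the lowest and highest values in both lists. The upstream peak of *RING1A* lies outside that gene, and 95 of its bases are in the snoRNA gene AT5G06565 on the opposite strand. GC skew, (G - C) / (G + C) on the coding strand, was 0.54 at *BMI1C*, 0.48 at the 3′ peak of *VAL1* and 0.47 at *LHP1* in both lists. At *EMF1* it was 0.37 in *ndx1-4* and 0.27 in Col-0. It was lowest at the first *VAL1* peak, -0.34 in both lists, and was -0.23 at the *BMI1A* peak found only in Col-0. It was also below 0 at the 5′ peak of *VAL2*, -0.19 in both lists, and at the *RING1B* peak, -0.08 in *ndx1-4* and -0.05 in Col-0. The *RING1B* peak lies in *TPX2*, for which this is the opposite of the coding strand. Thus, G-rich and C-rich coding strands both occurred under peaks within gene bodies, as at *LHP1* and the first *VAL1* peak.

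Motif letters were counted on both strands in the central 200 bases of each peak, so that peaks of different length could be compared. RY (CATGCA) was in 3 of 14 peaks in each list, 1 of *BMI1A* and 2 of *VAL1*, against 4.97% of all peaks in *ndx1-4* and 5.1% in Col-0. The telobox (AAACCCTA), a motif known to recruit PRC2, was in 1 of 14 in each list, the second peak of *VAL1*, against 4.38% of all peaks in *ndx1-4* and 4.33% in Col-0. The letters GAGAGA, also found in Polycomb response elements of plants, were in 6 of 14 in *ndx1-4* and 7 of 14 in Col-0, against 35.4% of all peaks in *ndx1-4* and 35.2% in Col-0. RY and its reverse complement TGCATG can overlap, as in the *VAL1* leader, and a window was counted once. In promoter windows from 250 bases before to 50 after the gene start, RY was in 1 of the 10, that of *VAL1* with 4 matches, against 9.72% of 27443 promoters. GAGAGA was in 5 of the 10 (*RING1B*, *BMI1A*, *BMI1C*, *VAL2* and *VAL3*), against 29.2%, and the telobox in 0 of the 10, against 6.22%. A match is a run of letters and does not show that a protein binds there.

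Other genes of the Polycomb pathway were counted by lists that were chosen by function. Of 12 genes listed under PRC2, which hold *VIN3*, *VRN5*, *VEL1* and *VEL2* beside subunit genes, 6 had a body peak in *ndx1-4* and 7 in Col-0. Of 17 genes for Polycomb-associated factors it was 7 in *ndx1-4* and 8 in Col-0. Of 7 genes listed as Polycomb antagonists it was 3 in *ndx1-4* and 4 in Col-0. Of 21 Polycomb target genes, 13 had one in *ndx1-4* and 14 in Col-0. Those with no peak in the body or within 1 kb in either list included *FLC*, *FUS3*, *ABI3*, *ABI5* and *DOG1*. Over all protein-coding genes the share with a body peak was 28.2% in *ndx1-4* and 29.6% in Col-0. Over genes of 2622 to 5976 bases it was 40.1% in *ndx1-4* and 42.2% in Col-0, though these lists also hold genes outside that range. No gene of these lists had a body peak in *ndx1-4* only, and each list had 1 gene with a body peak in Col-0 only. However, *EMF2* and *STM* each had 2 body peaks in *ndx1-4* and 1 in Col-0. Peaks covered 12.1% of the target gene bodies in *ndx1-4* and 11.7% in Col-0, whereas each of the other lists had the smaller share in *ndx1-4*. Over all protein-coding genes 7313 had a body peak in both lists, 423 in *ndx1-4* only and 816 in Col-0 only, so Col-0 only was also the commoner case in the genome.

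**Figure D4:**
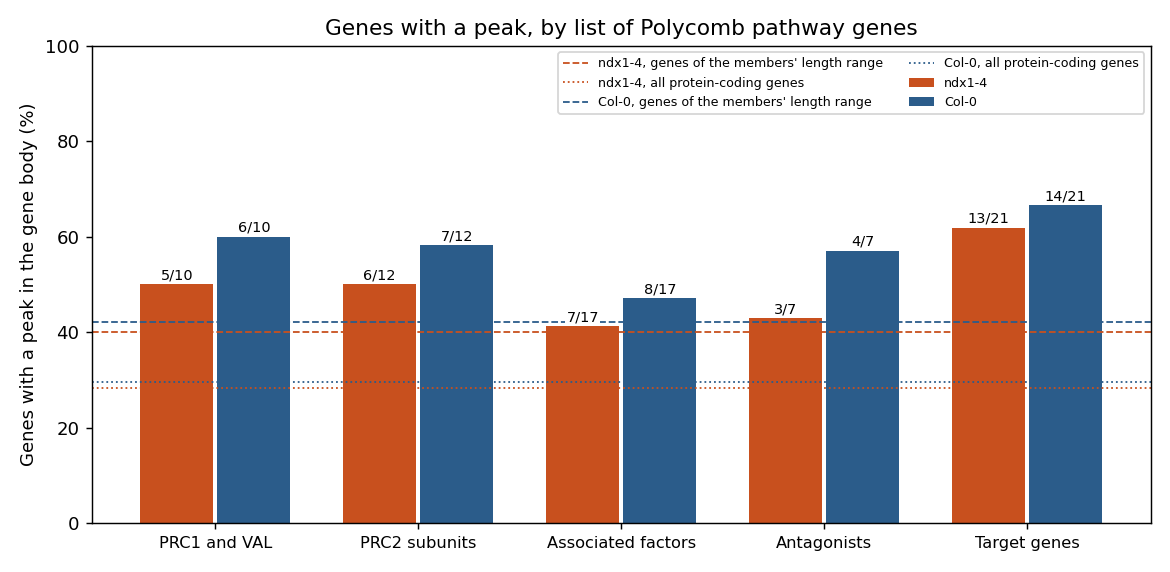
Percent of the genes of each list with a peak in the gene body in *ndx1-4* (left bar of each pair) and Col-0 (right bar), with counts above the bars, dashed lines for genes of the length range 2622 to 5976 bases and dotted lines for all protein-coding genes. The length range is that of the 10 PRC1 and VAL genes, and each of the other lists also holds genes outside it. The bars of the 10 PRC1 and VAL genes, at 5 and 6 of 10, are of about the height of those of the list labelled PRC2 subunits, at 6 and 7 of 12. The target genes are the highest, at 13 and 14 of 21.

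The genes with a body peak in Col-0 only were *VEL1*, *LIF2*, *ATX1* and *BBM*. *VEL1*, a relative of the vernalization gene *VIN3*, had a Col-0 peak of 1000 bases over its gene start (positions -419 to 581, score 144, percentile 83.7). *LIF2*, which encodes an RNA-binding protein that interacts with LHP1, had one of 580 bases at positions 593 to 1172 (score 198, percentile 94.8). Those of *ATX1*, a gene for an activating histone methyltransferase, and *BBM*, an embryo transcription factor gene, were 280 bases at percentile 13.9 and 220 bases at percentile 15.4. As at *BMI1A*, the peaks of *VEL1*, *ATX1* and *BBM* lay over the gene start, while that of *LIF2* did not. The share of all genes with a body peak in Col-0 only where it lies over the gene start was not counted. The genes with the most bases under a peak were the same in both lists. *VIN3* had 664 bases in *ndx1-4* and 704 in Col-0, and *SOC1*, a flowering time gene, had 1605 in *ndx1-4* and 1565 in Col-0. The H2A deubiquitinase gene *UBP13* had 3 body peaks in each list, and the chromatin remodeller gene *SYD* had 2. Both are long genes, of 9840 bases (*UBP13*) and 17067 bases (*SYD*). Peaks covered 11.6% of *UBP13* in *ndx1-4* and 12.2% in Col-0, and 5.44% of *SYD* in *ndx1-4* and 5.55% in Col-0. *NDX* itself had 1 body peak in each list, of 340 bases in *ndx1-4* (percentile 28.9) and 220 bases in Col-0 (percentile 11.3). The place of the T-DNA is not given in the sources used here, so this peak does not check the genotype.

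The pattern of *VAL1*, with peaks at both ends of the gene, was compared with that of 27443 other protein-coding genes. The measure was the Euclidean distance over 20 values, the percent under a peak in 10 equal parts of the gene in each of the 2 lists. The nearest genes were *ILL5* (AT1G51780, distance 43.7), AT5G57130 (distance 45) and *SYP81* (AT1G51740, distance 46.3). Of *ILL5*, 21.2% was under a peak in *ndx1-4* and 23.1% in Col-0. For AT5G57130 it was 17.8% in *ndx1-4*, from 2 peaks, and 15.2% in Col-0, from 3. For *SYP81* it was 15.2% in *ndx1-4* and 16% in Col-0.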

How the data were processed

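DRIP-seq peak lists of *ndx1-4* and Col-0 seedlings were used as deposited, 1 per genotype. Each peak had coordinates on the TAIR10 build and a score, which the authors deposited without its unit being stated in the sources used here. It was used only to rank peaks within a list. Bowtie2, SAMtools, Picard, deepTools and MACS2 are named in the submitters' processing notes, with versions, thresholds and the use of the input, RNaseH1-treated and replicate S9.6 libraries in the calls not given in the sources used here. Depth is unknown.

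Gene models and sequences came from RefSeq (TAIR10.1, same nuclear coordinates). A gene body was the annotated gene, and features were those of the transcript with the longest coding sequence. A peak was counted for a gene with an overlap of at least 1 base with its body, or with 1000 bases on each side. Matches to the reference were made by locus identifier for all 10 genes. Percentages over 31-base words count words found more than once in the genome on either strand. Identity of coding sequences was taken from pairwise global alignments over aligned bases, gaps left out. Other pathway genes were named where they had a body peak in only 1 list or the most bases under a peak in their list, and the 3 genes nearest to the gene with the most peaks were named. The 10 genes and the lists were chosen with earlier results of these data known. No test was made, because peaks are not replicates. Overlap and coverage code was tested on simulated data. Python 3.11.15, Biopython 1.88, numpy 2.4.6, pandas 2.3.3, scipy 1.17.1 and matplotlib 3.10.9 were used.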

Additional observations from a re-analysis of the deposited data

How the results depend on the processing

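No paired analysis was possible because each list covered a whole genotype, with no peaks per S9.6 library, which also left no library to leave out. Of 46 alternatives tried over 10 results, 29 gave a count within 1.5 times of that reported and 17 moved it, or moved a percentage outside its 95% Wilson interval over bases. Bases under the same peak are not independent, so that interval is too narrow, and all 6 alternatives for percentages moved. Keeping only long or high-scoring peaks can only lower a count, so this tally is not a measure of stability. With only peaks of at least 500 bases, 1 of 10 genes had a body peak in *ndx1-4*, and 4 of 10 a peak in the body or within 1 kb. Peaks at the 10 genes numbered 4 in *ndx1-4* and 6 in Col-0, with 4 partners in each, over 1.19% of gene body bases in *ndx1-4* and 3.51% in Col-0. With the higher-scoring 50% of each list, 3 genes had a body peak in *ndx1-4*, and there were 7 peaks in *ndx1-4* and 9 in Col-0, with 7 partners in each, over 3.03% in *ndx1-4* and 4.22% in Col-0. With start codon to stop codon in place of the gene, 3.52% in *ndx1-4* and 3.82% in Col-0 lay under a peak. The counts in Col-0 of genes with a body peak (4 to 6), and of genes with one in the body or within 1 kb (6 to 9), kept within 1.5 times of 6 and 9 under every alternative run. Flanks of 500 and 2000 bases, merged peaks, an overlap of 50% of the peak, and a reciprocal overlap of 50% for partners moved none of the counts beyond 1.5 times. The body peak of *EMF1* in Col-0 rests on 9 bases. Absence of a peak does not show absence of R-loops, since depth and thresholds are unknown.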
